A study of Mus musculus with 2 samples.

Results

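The genes of 10 heat shock proteins were followed, namely Hspa1a, Hspa1b, Hspa8, Hsp90aa1, Hsp90ab1, Hsph1, Hspd1, Hspe1, Hspb1 and Dnajb1. They were found by gene symbol, each on 1 line of the data, and are 10 of 22886 genes. They were chosen by family with their RPKM and log2 ratios in both libraries already seen, so these values are given as a description and support nothing by themselves. The data are 2 RNA sequencing libraries of polyA RNA from cells that the labels call aerobic tumor cells, sorted from subcutaneous LLC (Lewis lung carcinoma, a mouse lung tumor) in wild type C57BL/6 mice. The mice of the vehicle library had been injected with vehicle, and those of the clodronate library with clodronate, a bisphosphonate that is often packed into liposomes to kill phagocytes. Both libraries share the strain, the genotype and the tumor. The labels give neither the formulation, the dose or the time of the injection, nor the age of the mice, nor how many mice each library holds. A growth protocol in the labels names EML cells, a blood progenitor line, which conflicts with the tissue label.

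With 1 library per condition no difference has a replicate check, and no test was made. The values are RPKM, reads scaled to transcript length and library size, so levels of different genes can be set side by side. Ratios compare clodronate with vehicle on the log2 scale after 1 was added to each RPKM, and so come out too small for low genes. A ratio was described as large where it reached 2-fold, beside the share of all 10982 genes averaging 1 RPKM or more that did so. In low values the worth of 1 read could be read off, which gave scaling totals of about 12900000 reads for vehicle and 10400000 reads for clodronate. The approximate reads of the vehicle library rest on its total. Those of the clodronate library, and the 95% counting intervals of ratios, rest on that vehicle total and a depth ratio of 1.23. This ratio of vehicle to clodronate reads came from loci low in both libraries. The intervals cover counting error only and treat every read as surely placed on its gene. For genes that share much sequence with others they may therefore be too narrow.

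The labelled cell type was set against marker genes. The 10 macrophage markers found, among them Lyz2, C1qa and Csf1r, summed to 26098 RPKM in the vehicle library and 24770 RPKM in the clodronate library, with none under 174 and 261 RPKM. Of 6 epithelial markers neither library had a value above 0 for Epcam and Krt19, and the 6 summed to 15.0 and 11.0 RPKM. The 6 blood progenitor markers summed to 26.5 and 156 RPKM, of which Ly6a, a surface protein also found on other cells, took 21.1 and 153 RPKM, while Kit, the stem cell factor receptor, stood at 1.36 and 0.717 RPKM. The markers present were thus mainly those of macrophages in both libraries, and the epithelial markers were low or at 0. In bulk RNA, fewer cells of a type and less RNA per cell cannot be told apart.

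Heat shock proteins are chaperones that hold unfolded proteins and help them fold. HSP70 proteins bind short stretches of unfolded chain and release them with ATP, helped by J-domain (HSP40) proteins such as Dnajb1 that deliver the substrate and by exchange factors such as Hsph1 (HSP110) that renew the nucleotide. HSP90 finishes the folding of kinases and steroid receptors, and HSP60 with its lid HSP10 folds proteins inside mitochondria. Under heat or other protein damage the factor HSF1 binds heat shock elements, inverted repeats of the unit GAA, and switches on the inducible members, while the constitutive members are made in cells at rest.

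Taken as a sum, the 10 genes were level, and within the sum a few genes lay far apart. The summed level was 2833 RPKM in the vehicle library and 2835 RPKM in the clodronate library, 0.471% and 0.475% of all RPKM. The inducible HSP70 gene Hspa1a and the small heat shock gene Hspb1 were at least 2-fold higher in the clodronate library, and Hspe1, the mitochondrial HSP10, was just past 2-fold lower. That is 2 of 10 members higher, beside 6.95% of all genes, and 1 of 10 lower, beside 6.77% of all genes. Over all genes 763 were higher and 744 lower, and this balance depends on the scaling, since 1004 were higher and 563 lower when the libraries were scaled to 10 reference genes. The other 7 members lay within 2-fold. At 3-fold, 2 members were higher and none lower, beside 2.86% and 2.32% of all genes, and at 1.5-fold 3 were higher and 1 lower, beside 16.6% and 16.3%. In direction, 5 members were higher and 5 lower, beside 51.6% and 48.4% of all genes, and the median log2 ratio was 0.11 over the members and 0.019 over all genes kept. The median of the members was -0.039 once Hspa1a and Hspa1b were taken as 1 gene. All 10 members passed the filter on low values, Hspb1 through the clodronate library alone.

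**Figure D1:**
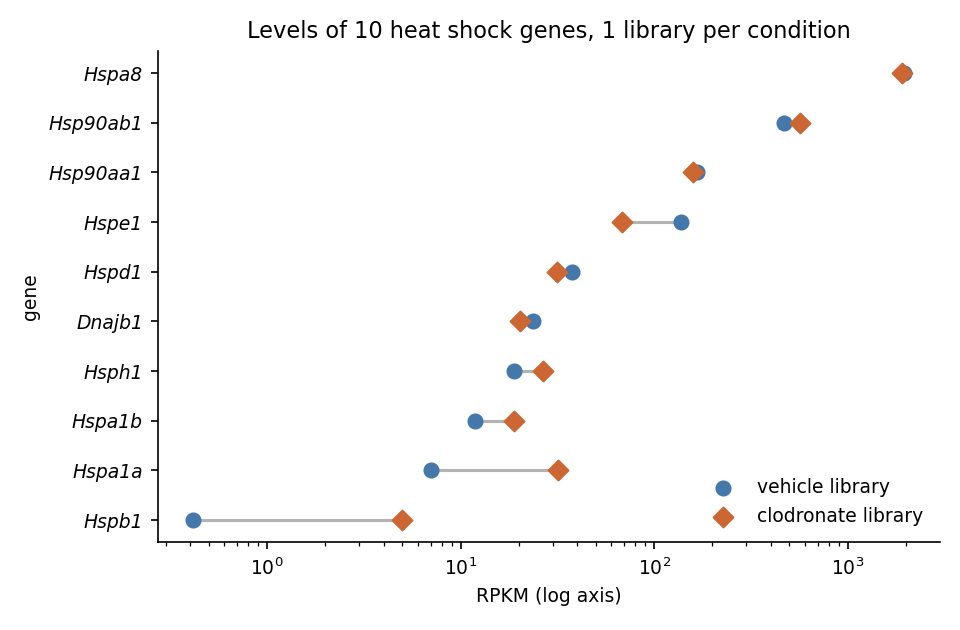
RPKM (log axis) of the 10 genes in the vehicle library (circles) and the clodronate library (diamonds), 1 library each and so without error bars, ordered by the vehicle level. The levels run from 0.415 RPKM (Hspb1, vehicle) to 1959 RPKM (Hspa8, vehicle), and the widest gaps between the libraries are those of Hspb1, Hspa1a and Hspe1.

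The levels of the members spread widely, with the highest member 4723 times the lowest in the vehicle library and 385 times in the clodronate library. Hspa8, Hsp90ab1, Hsp90aa1 and Hspe1 held the first 4 places in both libraries, in this order. Hspa1a moved from place 9 to place 5, passing Hspa1b, Hsph1, Dnajb1 and Hspd1. In the vehicle library the gaps between Hsph1 (18.8 RPKM) and Dnajb1 (23.6 RPKM), and in the clodronate library those between Hspa1a (31.8 RPKM) and Hspd1 (31.5 RPKM) and between Hspa1b (18.9 RPKM) and Dnajb1 (20.3 RPKM), were small, and without replicates the order of such neighbours is not settled. 8 of the 10 members lay above the median gene (11.1 and 11.3 RPKM) in both libraries, all but Hspa1a and Hspb1.

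Hspa1a and Hspa1b encode the stress-inducible HSP70, which differs from the constitutive Hspa8 protein in being made mainly after stress. They are neighbouring genes on chromosome 17, which the files place on mm9 at chr17:35106303-35109101 (Hspa1a) and chr17:35093373-35096183 (Hspa1b). Hspa1a stood at 7.02 RPKM in the vehicle library and 31.8 RPKM in the clodronate library, about 268 and 992 reads. This is a log2 ratio of 2.03, and without the pseudocount a ratio of 4.53 with a counting interval of 3.96 to 5.21. Hspa1b stood at 11.8 and 18.9 RPKM, about 427 and 557 reads, a log2 ratio of 0.63 and a ratio of 1.60 (1.41 to 1.82). Both copies were thus higher in the clodronate library, Hspa1a by more. Hspa1b was the higher copy in the vehicle library, at 1.69 times Hspa1a, and the lower one in the clodronate library, at 0.594 times.

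How reads were divided between these copies bears on each of their values. Of the 50-base stretches of the Hspa1a transcript in GENCODE M21, 58.8% also occur in Hspa1b, and 62.3% of those of Hspa1b occur in Hspa1a. The stretches shared by both copies lie between base 27 and base 2181 of Hspa1a. Its last 786 bases, like the last 619 bases of Hspa1b, hold none of these. With all other annotated genes counted, 66.3% of the stretches of Hspa1a are shared, and where the further ones lie was not examined. A read from the part shared by both copies cannot be placed on one copy, so the sum of both is the firmer value. That sum was 18.8 RPKM in the vehicle library and 50.7 RPKM in the clodronate library, a log2 ratio of 1.38, which is also past 2-fold. The share of Hspa1a in the sum was 37.2% and 62.7%, and how much of that shift comes from the division of reads was not tested.

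The promoter sequences of both copies are shown because they are almost the same. The ratios listed for the copies differ, and how much of that comes from the division of reads was not tested. In the RefSeq promoter table for GRCm38.p6, which holds windows from 250 bases before to 50 bases after each annotated start, 7 of the 10 members were found. Promoters of Hspa8, Hsp90aa1 and Hsp90ab1 were not used here. The windows of Hspa1a and Hspa1b differ at 3 of the 250 bases before the start (98.8% identical) and at 1 of the 50 bases after it. The stretches below surround the heat shock element, whose letters are in capitals, read 5′ to 3′ on the minus strand at chr17:34972233-34972280 (Hspa1a) and chr17:34959315-34959362 (Hspa1b).
Hspa1a: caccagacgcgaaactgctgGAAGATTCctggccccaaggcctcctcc
Hspa1b: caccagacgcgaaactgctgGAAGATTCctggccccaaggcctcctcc
The stretches are identical and hold a 2-unit element at position -104 from the start. The first base of the transcript is counted as 1, and no base as 0. A 2-unit element was searched for as GAANNTTC or TTCNNGAA, each its own reverse complement, and occurs in 15.1% of all 32851 windows of 300 bases. Each of both windows also holds a CCAAT box (CCAAT or ATTGG, in 37.4% of all windows) at position -67.

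Hspb1 encodes HSP25, the mouse form of HSP27, a small heat shock protein that holds unfolded proteins without ATP and binds actin. The files place it at chr5:136363788-136365433 on mm9. It was the lowest member in both libraries, at 0.415 RPKM for vehicle and 4.95 RPKM for clodronate. These values stand for about 5 and 47 reads at a transcript length of 903 nt. The log2 ratio was 2.07, and the ratio without the pseudocount was 11.9 with a counting interval of 4.60 to 37.1, the widest of the 10 members. A processed copy, Hsp25-ps1, shares 58.9% of the 50-base stretches of Hspb1, so reads of both may be mixed.

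The promoter of Hspb1 is shown because it holds a pair of separate elements. It lies on the plus strand at chr5:135887782-135887849 of GRCm38.p6, with both 2-unit elements in capitals.
Hspb1: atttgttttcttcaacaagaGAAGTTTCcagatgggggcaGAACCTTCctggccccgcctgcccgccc
The elements begin at positions -117 and -97. The window of Hspb1 holds no CCAAT box in these letters. The genes whose pair of levels lay nearest to that of Hspb1, out of 10517 compared on the scale of log2(RPKM + 1), were Hyls1 (0.454 and 4.94 RPKM), Kntc1 (0.494 and 4.64 RPKM) and Actr6 (0.387 and 4.45 RPKM). With 2 libraries this likeness rests on 2 values per gene.

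Hspe1 and Hspd1 encode HSP10 and HSP60, the lid and the barrel of the mitochondrial chaperonin, and start next to each other in opposite directions on chromosome 1. On mm9 the files place Hspe1 at chr1:55144991-55148161 and Hspd1 at chr1:55134677-55144776. Hspe1 stood at 138 RPKM in the vehicle library and 68.3 RPKM in the clodronate library, about 1378 and 556 reads, a log2 ratio of -1.01 and a ratio of 0.495 (0.447 to 0.546). Hspd1 stood at 37.5 and 31.5 RPKM, about 1171 and 803 reads, a log2 ratio of -0.24 and a ratio of 0.840 (0.767 to 0.920). Both were lower in the clodronate library, the lid by more than the barrel. The level of Hspe1 was 3.68 times that of Hspd1 in the vehicle library and 2.17 times in the clodronate library. Each shares 44.8% of its 50-base stretches with other annotated genes, mainly processed copies for Hspd1.

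Transcript length and base composition moved with the ratios of all genes. In the tenth of genes with the shortest transcripts, to which Hspe1 (774 nt) belongs, the median log2 ratio was -0.19. After the median of each bin of GC content and of length was subtracted, Hspe1 had a log2 ratio of -0.76 and was no longer past 2-fold, and it was likewise within 2-fold when the libraries were scaled to the same RPKM sum or to reference genes. In the tenth of genes richest in GC, to which Hspa1a, Hspa1b and Hspb1 belong, the median was 0.29, and the corrected log2 ratios were 1.70, 0.30 and 2.05. Hspa1a and Hspb1 stayed past 2-fold.

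**Figure D2:**
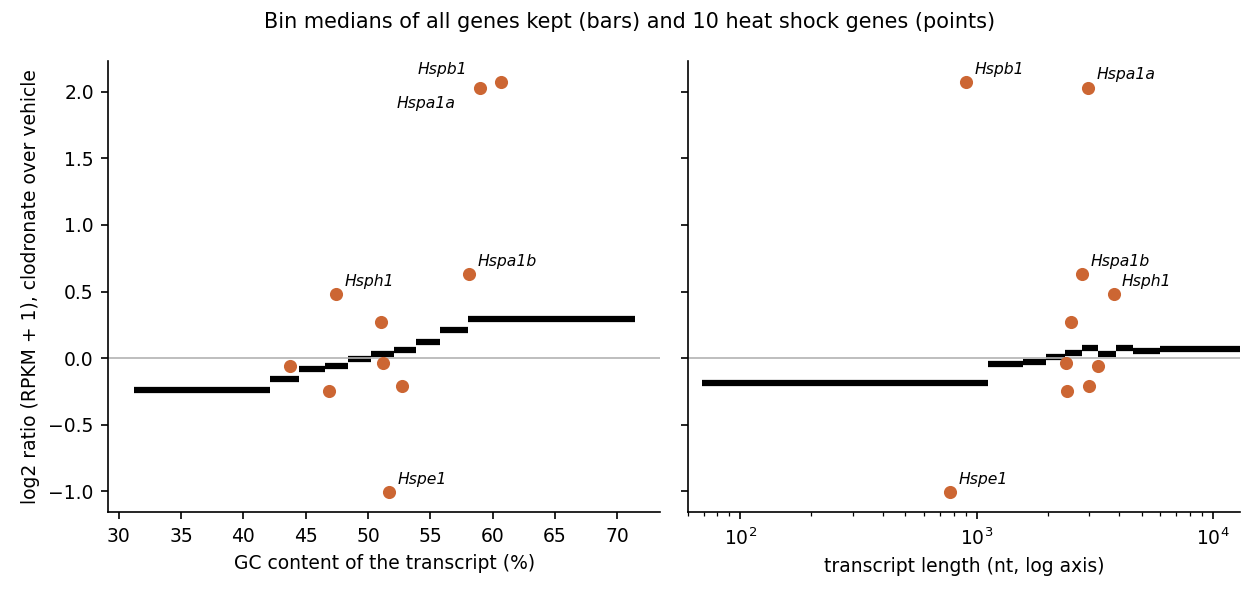
Log2 ratio (RPKM + 1, clodronate over vehicle) of the 10 genes (points) against the GC content of the transcript (left, %) and its length (right, nt, log axis), with the median of all genes kept in each of 10 bins (bars spanning the bin, the longest one cut by the axis). The bars climb from -0.24 to 0.29 with GC content and lie at -0.19 for the shortest transcripts, and Hspa1a, Hspb1 and Hspe1 lie far from the bars of their bins.

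Hspd1 and Hspe1 share the region between them, and it is shown because it holds the longest run of heat shock units among the 7 members with a promoter window. The 30 bases lie at chr1:55088053-55088082 of GRCm38.p6 and are printed once for each gene, on the minus strand for Hspd1 and on the plus strand for Hspe1, with 4 units in a row in capitals. They overlap an annotated exon of Hspd1.
Hspd1: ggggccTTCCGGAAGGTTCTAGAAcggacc
Hspe1: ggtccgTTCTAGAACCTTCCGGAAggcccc
The run begins at position -144 from 1 of the 2 annotated starts of Hspd1 and at position -89 from the start of Hspe1. It lies after the other start of Hspd1, whose window holds no 2-unit element. A 3-unit element, in which 3 units GAA and TTC alternate with 2 bases between neighbours, occurs in 0.603% of all windows, and a 4-unit one, built alike, in 8 windows (0.0244%), with both strands searched. The 3-unit matches include the 2-unit ones, and the 4-unit matches include both. Among the 7 members with a window, 6 held a 2-unit element, 3 a 3-unit element (Hspd1, Hspe1 and Hsph1) and 2 a 4-unit element (Hspd1 and Hspe1). Counted likewise by gene, these elements occur in 17%, 0.662% and 0.0296% of all 27025 genes with a window. A match of letters is a description and shows no binding.

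**Figure D3:**
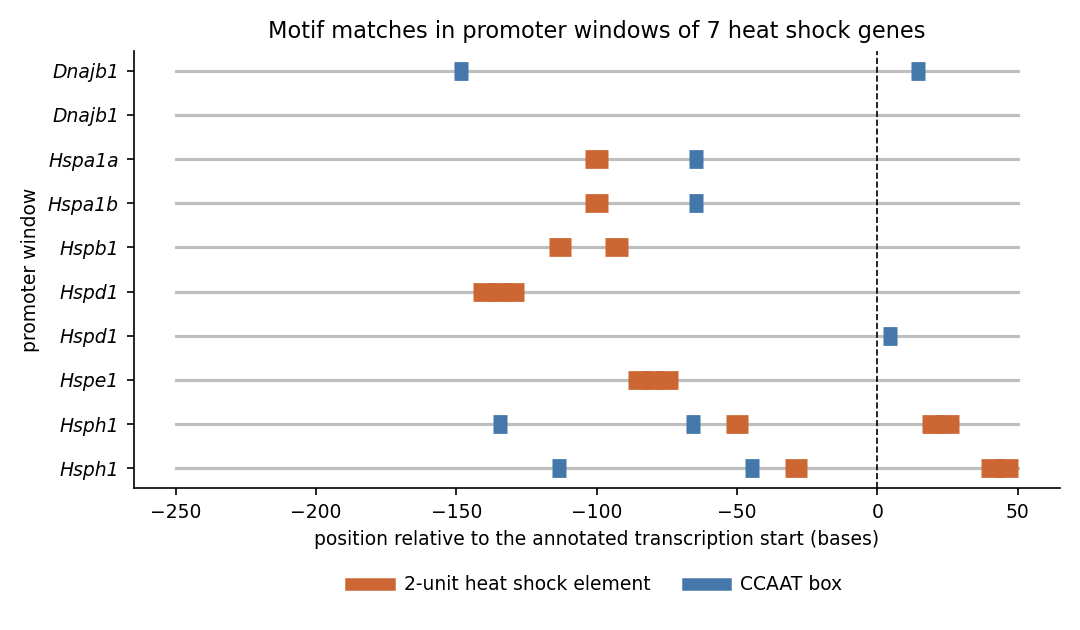
Matches of the 2-unit heat shock element (orange) and of the CCAAT box (blue) in the promoter windows of 7 members, from 250 bases before to 50 bases after each annotated start (dashed line at 0); Dnajb1, Hspd1 and Hsph1 have a window for each of 2 starts. Hspa1a and Hspa1b match at the same positions. A window of Hspd1 and that of Hspe1 have 3 overlapping 2-unit matches. The other window of Hspd1 and both windows of Dnajb1 have no 2-unit match.

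Hspa8, the constitutive HSP70 (HSC70), was the highest member and nearly level between the libraries. The files place it at chr9:40609355-40613282 on mm9. It stood at 1959 RPKM in the vehicle library and 1906 RPKM in the clodronate library, about 60448 and 48008 reads, a log2 ratio of -0.039. This gene alone made up 69.1% and 67.2% of the summed RPKM of the 10 members and ranked 43 and 37 among all genes kept. The other 9 members summed to 874 and 929 RPKM. In all, 13 other annotated genes share 50-base stretches with Hspa8, one of them (Gm15459) 70.0% of them.

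Hsp90ab1 and Hsp90aa1 encode the cytosolic HSP90 proteins, of which the first is the constitutive and the second the more inducible form. They lie at chr17:45704726-45710210 and chr12:111929245-111934605 on mm9. Hsp90ab1 stood at 470.5 RPKM in the vehicle library and 567 RPKM in the clodronate library, a log2 ratio of 0.27 and a ratio of 1.21 (1.18 to 1.23). Hsp90aa1 stood at 166 and 159 RPKM, a log2 ratio of -0.063 and a ratio of 0.957 (0.924 to 0.992). The constitutive form was 2.83 times the inducible one in the vehicle library and 3.56 times in the clodronate library. Of the 50-base stretches of Hsp90aa1, 58.5% also occur in other annotated genes, beside 4.49% for Hsp90ab1. Reads of Hsp90aa1 may thus be mixed with those of other genes. The signs of Hspa8 and Hsp90aa1 depend on the scaling: with both libraries scaled to 10 reference genes their log2 ratios were 0.090 and 0.066, and Hsp90aa1 was also positive, at 0.060, once GC content and length were corrected for.

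Hsph1 and Dnajb1 serve HSP70 in opposite steps, Dnajb1 by bringing substrate and Hsph1 by exchanging nucleotide. Hsph1 (chr5:150419419-150438890 on mm9) stood at 18.8 RPKM in the vehicle library and 26.6 RPKM in the clodronate library, about 921 and 1065 reads, a log2 ratio of 0.48 and a ratio of 1.42 (1.30 to 1.55). Dnajb1 (chr8:86132073-86135802 on mm9) stood at 23.6 and 20.3 RPKM, about 911 and 639 reads, a log2 ratio of -0.21 and a ratio of 0.859 (0.775 to 0.952). The exchange factor was the higher of both in the clodronate library and the lower in the vehicle library, and both stayed within 2-fold. They are also the members with the cleanest sequence: Hsph1 shares no 50-base stretch with another gene and Dnajb1 0.441% of them.

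A stretch of the Hsph1 promoter is shown for contrast with the other members, since its 2-unit element lies close to the start. It is on the minus strand at chr5:149636351-149636380 of GRCm38.p6 and overlaps an annotated exon of Hsph1.
Hsph1: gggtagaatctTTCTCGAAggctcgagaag
The element begins at position -54 or -33, depending on which of 2 annotated starts is taken, and a 3-unit element lies after the start, at position 16 or 37. Neither window of Dnajb1 holds the 2-unit element in these letters.

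**Figure D4:**
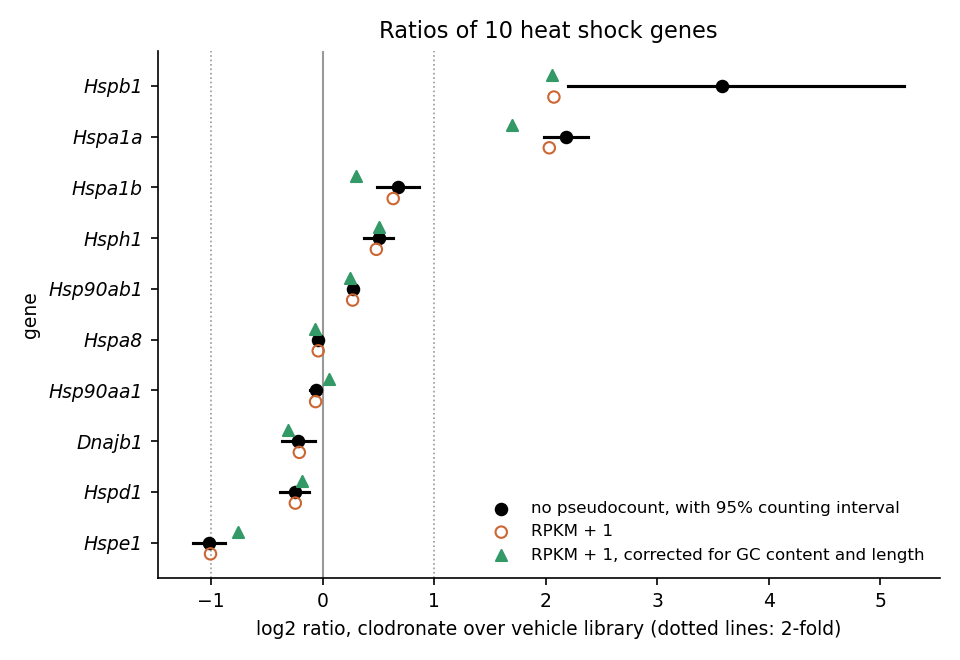
Log2 ratio, clodronate over vehicle library, of the 10 genes without a pseudocount with the 95% counting interval (black), with RPKM + 1 (open circles) and with RPKM + 1 after correction for GC content and length (triangles); dotted lines mark 2-fold. Hspb1 and Hspa1a lie to the right of the 2-fold line in all versions, Hspe1 reaches the left line only without the correction, and Hsp90aa1 changes sign with it.

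Chaperones outside the 10 members showed few ratios past 2-fold. Over 9 lists of 86 genes, 75 were kept, of which 3 passed 2-fold upward (4%) and 4 downward (5.33%). The median log2 ratio was 0.11, and 42 genes were higher and 33 lower. These shares lie near those of all genes, 6.95% and 6.77%.

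The partners of the HSP70 members were mixed. Of the 6 other HSP70 and HSP110 genes kept, none passed 2-fold in either direction, and their median log2 ratio was -0.32. Hspa4, an HSP110 exchange factor like Hsph1, stood at 20.3 RPKM in the vehicle library and 27.0 RPKM in the clodronate library. Of 16 other HSP40 genes, Dnajb5 was past 2-fold higher (3.34 and 9.20 RPKM) and Dnajc21, a cofactor of ribosome assembly, past 2-fold lower (14.2 and 4.37 RPKM), with a list median of -0.14. Of 7 exchange factors and cofactors of HSP70, Bag5 was past 2-fold lower (11.6 and 4.38 RPKM), and the list median was 0.55, or 0.30 with GC content and length corrected for and 0.27 without the filter. Bag3, a cofactor of HSP70 that is itself stress-inducible, stood at 27.7 and 45.7 RPKM, a log2 ratio of 0.70. Of 8 small heat shock genes other than Hspb1, Hspb6 (8.80 and 8.24 RPKM) and Hspb8 (1.17 and 1.27 RPKM) were kept, of which Hspb6 stood above Hspb1 in both libraries, and Hspb2, Hspb3 and Cryaa were listed at 0 in both libraries.

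Among 15 co-chaperones of HSP90, 12 were higher in the clodronate library and 3 lower, beside 51.6% and 48.4% of all genes, and the median log2 ratio was 0.29. Fkbp5, an immunophilin that glucocorticoids induce, was past 2-fold lower, at 25.1 RPKM in the vehicle library and 12.0 RPKM in the clodronate library, and within 2-fold when scaled to the reference genes. Stub1, the ubiquitin ligase CHIP that binds HSP70 and HSP90, was past 2-fold higher, at 10.8 and 752 RPKM, a log2 ratio of 5.99. The locus of Stub1 overlaps that of Jmjd8, which stood at 24.8 and 23.8 RPKM, and whether reads of the region were divided alike in both libraries was not tested. Stip1 (HOP), which links HSP70 to HSP90, stood at 42.7 and 44.0 RPKM, and Fkbp4 at 33.4 and 34.2 RPKM.

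The chaperones of other compartments lay mostly within 2-fold, as most genes did. Of all genes, 6.95% were past 2-fold upward and 6.77% downward. The 8 subunits of TRiC, the cytosolic chaperonin that folds actin and tubulin, all lay within 2-fold. Their median log2 ratio was 0.11, or 0.31 for the 7 that could be corrected for GC content and length. Of 10 mitochondrial chaperones and proteases, Dnajc19 was past 2-fold higher (15.6 and 32.3 RPKM), and its locus overlaps that of Fxr1 (22.0 and 29.8 RPKM). With the libraries scaled to the same upper quartile Dnajc19 had a log2 ratio of 0.95, within 2-fold. Hspa9, the mitochondrial HSP70 that hands proteins to HSP60, stood at 37.6 and 44.4 RPKM, and Trap1, the mitochondrial HSP90, at 29.7 and 22.0 RPKM. In the endoplasmic reticulum 7 of 8 chaperones were higher in the clodronate library, beside 51.6% of all genes, none of them past 2-fold, with a median of 0.39. Hspa5 (BiP) stood at 322 and 367 RPKM, Hsp90b1 (GRP94) at 134 and 183 RPKM, and Calr at 372 and 485 RPKM.

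The factors that switch on heat shock genes did not share one direction. Hsf1, the main heat shock factor, stood at 32.5 RPKM in the vehicle library and 28.9 RPKM in the clodronate library, a log2 ratio of -0.16. Hsf2 stood at 0.930 and 2.61 RPKM. Hsbp1, which binds HSF1 and dampens it, was past 2-fold lower, at 255 and 124 RPKM, a log2 ratio of -1.04. Once corrected for GC content and length it had a log2 ratio of -0.87, within 2-fold.

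**Figure D5:**
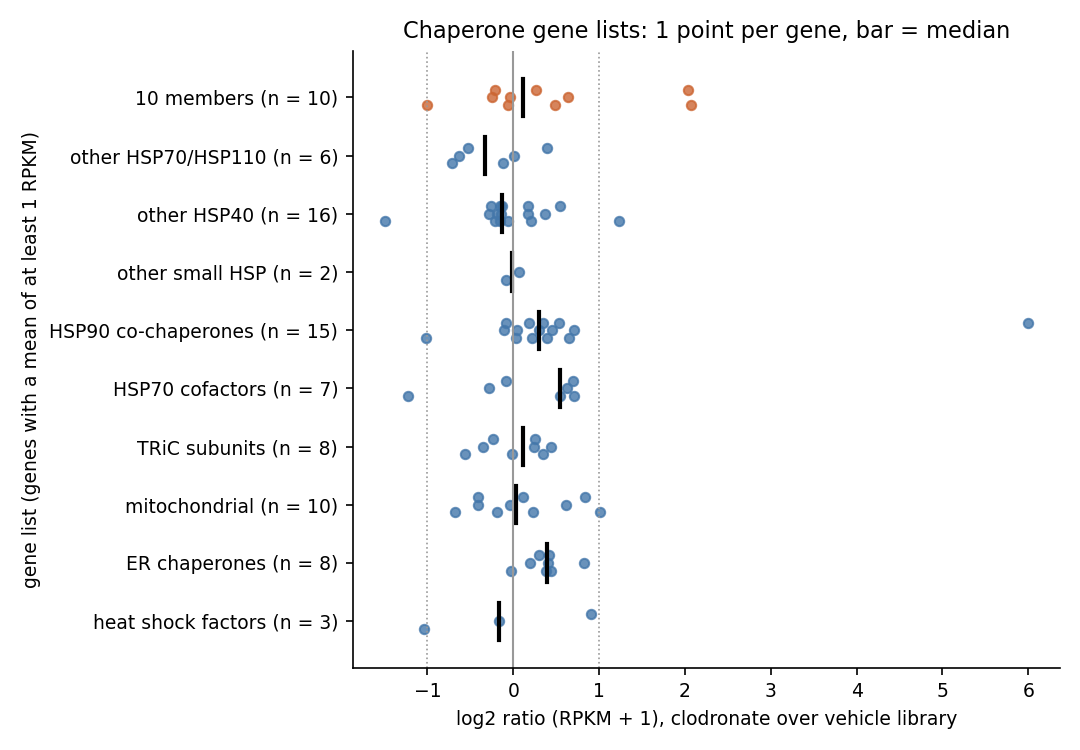
Log2 ratio (RPKM + 1, clodronate over vehicle library) of each gene kept, 1 point per gene, in the 10 members (orange) and in 9 lists of other chaperones and heat shock factors (blue); the bar is the list median and dotted lines mark 2-fold. Most points lie between the dotted lines, the outermost point is Stub1 at 5.99, and the bars lie between -0.32 and 0.55.

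Other gene groups that can move with heat shock genes were measured in the same libraries. The 12 immediate early genes, among them Fos, Jun and Egr1, are induced along with Hspa1a when tissue is dissociated into cells, and they summed to 3634 RPKM in the vehicle library and 4171 RPKM in the clodronate library. Of the 12, 11 were higher in the clodronate library, beside 51.6% of all genes, none past 2-fold, with a median log2 ratio of 0.23. Once GC content and length were corrected for, the median was 0.15. Ier2 and Dusp1 then turned negative, and the other immediate early genes kept their sign. Of 8 genes of dividing cells, 5 were past 2-fold higher, beside 6.95% of all genes, with a median of 1.14 and summed levels of 61.5 and 163 RPKM. Fibroblast markers summed to 154 and 75.4 RPKM, with none of the 7 listed at 0 in both libraries. Dcn (77.3 and 28.4 RPKM) and Col3a1 (62.1 and 34.4 RPKM) held most of this sum. Of the 6 fibroblast markers kept, 5 were lower, beside 48.4% of all genes, among them Col1a2, which was nearly level (2.01 and 1.94 RPKM). The other, Col1a1, was higher (2.32 and 5.40 RPKM). Endothelial markers summed to 3.34 and 7.84 RPKM, with Tek and Emcn at 0 in both. Pecam1 (1.24 and 3.33 RPKM) and Cdh5 (0.480 and 3.24 RPKM) were higher in the clodronate library, and Vwf (0.967 and 0.443 RPKM) was lower. T and NK cell markers summed to 11.1 and 9.76 RPKM, mostly Cd4 (10.3 and 7.72 RPKM), with Cd3e and Cd3g at 0. Neutrophil markers summed to 43.1 and 45.1 RPKM, with S100a9 and Retnlg at 0. Of these, Csf3r stood at 26.4 and 19.3 RPKM, S100a8 at 12.7 and 23.1 RPKM and Cxcr2 at 4.06 and 2.69 RPKM. The 6 adipocyte markers and the 2 erythroid markers found had no gene past the filter. The part of these groups in the levels of Hspa1a, Hspb1 and Hspe1 was not tested, and with 1 library per condition the injection and the library cannot be told apart.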

How the data were processed

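The RPKM values were made by the authors, whose submitters' processing notes name CASAVA 1.8.2, TopHat2 2.0.9, Bowtie 0.12.9, Cufflinks 2.2.1, Cuffdiff and the build mm9. The paper does not describe this tumor experiment. Of 23170 loci, lines with the same symbol were summed to 22886 genes (26 loci whose symbol was a number were named by accession). Genes averaging 1 RPKM or more were kept (10982), and ratios had a pseudocount of 1. The worth of 1 read was taken from the most frequent low values of RPKM times transcript length. Of 597 loci under 0.5 RPKM, 236 (39.5%) had ratios of whole numbers up to 5 within 0.1%, and the vehicle library had about 1.23 times the reads. This depth ratio and the vehicle total, not the clodronate total, gave the reads of the clodronate library. Reads are therefore approximate, and no count test was run.

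Groups came from the sample descriptions. The members and gene lists were chosen with earlier results of these data known. The named genes are the members, genes from the lists picked by role, and the 3 genes nearest to Hspb1; Jmjd8 and Fxr1 were named after their values were seen. Length and GC content came from GENCODE M21 transcripts (98.7% of genes kept) and promoters from RefSeq GRCm38.p6; mm9 and GRCm38 coordinates were never combined. A planned comparison of the proteins was not run; shared 50-base stretches of transcripts, the 4-unit element and the ratio without pseudocount were added after seeing the data. As alternatives, the pseudocount was 0.1, the filter was dropped or raised to a mean of 5 RPKM, and 3-fold and 1.5-fold, 4 other scalings, the highest line of a symbol, the summed Hspa1 pair and a correction by the medians of 10 bins of GC content and 10 of length were used. Steps were tested on simulated data with large changes in well expressed genes. That test covered neither changes in low genes, nor changes near 2-fold, nor reads shared between genes. Python 3.11.15, numpy 2.4.6, pandas 2.3.3, scipy 1.17.1 and matplotlib 3.10.9 were used.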

Additional observations from a re-analysis of the deposited data

How the results depend on the processing

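No paired analysis was possible because vehicle and clodronate have 1 library apiece, and no library could be left out. The number of all genes at least 2-fold higher (763) was 1828 at 1.5-fold, 314 at 3-fold and 346 under a filter of 5 RPKM on the mean, and the number lower (744) was 1789, 255 and 356. Scaled to the reference genes 1004 were higher and 563 lower, and at the same upper quartile 694 and 829. The median log2 ratio of the members (0.11) was -0.039 with Hspa1a and Hspa1b summed and under the filter of 5 RPKM, which drops Hspb1, and 0.24 after scaling to the reference genes, a scaling that moved the median of all genes from 0.019 to 0.15. The number of members at least 2-fold higher was 1 under that filter, again without Hspb1. The number at least 2-fold lower, Hspe1 alone, was 0 at 3-fold, with GC content and length corrected for, with the same sum of RPKM and after scaling to the reference genes, and its log2 ratio ranged from -1.07 to -0.76. Hspa1a ranged from 1.70 to 2.18 and Hspb1 from 2.02 to 3.58 over their own alternatives, both past 2-fold in each. The planned sum of Hspa1a and Hspa1b is not part of that range and had a lower log2 ratio, 1.38. The log2 ratios of Hspa8 and Hsp90aa1 changed sign with the scaling to the reference genes, that of Hsp90aa1 also with GC content and length corrected for, and those of the other 8 members kept their sign. Of the summary values, 51 stayed within 0.1 on the log2 scale, or 1.5 times for a count, and 14 moved further. Of the log2 ratios of single members and the list medians, 187 stayed within 0.1 and 54 moved further. These tallies depend on the settings chosen and do not measure how firm a ratio is. Each member has 1 line, so taking the highest line changed none, and a filter leaves the ratio of a kept gene as it is. Scaling to the reference genes moved every single ratio by more than 0.1. Of the 7 other chaperone genes past 2-fold, Dnajc19, Fkbp5 and Hsbp1 were within it under 2, 1 and 2 of 9 alternatives. Depth limits Hspb1 most, with about 5 reads in the vehicle library.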
